A study of Mus musculus with 63 samples.

Results

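The difference between the genotypes was examined in dentate gyrus (DG) tissue of cultures that had not been lesioned. The 11 libraries were chosen by their labels (DG tissue, control, either genotype) from 63 libraries in all, 39 of which came from a dissected hippocampal region. Of these 11, 4 were wildtype [C57BL/6] and are called Synpo+/+, and 7 were synaptopodin deficient [SP-KO] and are called Synpo-/-. All were organotypic cultures of the entorhinal cortex and hippocampus, prepared from mice of either sex at postnatal day 3 to 5 and kept for at least 18 days in vitro. Synpo+/+ cultures came from C57BL/6J mice, and Synpo-/- cultures came from B6.129-Synpotm1Mndl/Dllr mice, a line that carries a targeted Synpo allele of 129 origin by its name and was back-crossed to C57BL/6J. Every cell of a Synpo-/- culture carries the allele throughout life, and a slice culture keeps its glia but has no afferents from outside the slice. Each library was made from the DG of a single culture, and which libraries came from littermates is not given, so the p-values measure the spread between cultures. The genotype contrast in control CA3 (6 Synpo-/- and 2 Synpo+/+ libraries), in lesioned DG (4 and 7) and in lesioned CA3 (6 and 3), where lesioned means 3 days after transection of the entorhinal input, was used to see how the same genes differed in other libraries.

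Synaptopodin is an actin-binding protein of dendritic spines and of the kidney podocyte. In principal neurons it is needed to form the spine apparatus, a stack of endoplasmic reticulum in a subset of large spines that holds calcium, and it is enriched in the postsynaptic part of mossy fibre synapses. A line made by targeting a gene in embryonic stem cells of 1 strain and then crossed into another strain can keep donor chromosome around the targeted gene, so genes close to that gene are commonly examined apart from the rest of the genome.

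Total counts per library were 15967190 to 26931489 in the Synpo-/- group (median 20972427) and 14147174 to 25190705 in the Synpo+/+ group (median 19433331). Prox1, the transcription factor that defines dentate granule cells, lay between 123 and 197 CPM (reads per megaread of the library) in the Synpo-/- and between 144 and 196 CPM in the Synpo+/+ libraries, against 13.1 to 39.0 CPM in control CA3, and of the lesioned DG libraries 1, Synpo+/+ replicate 5, lay at the level of CA3 with 12.7 CPM. More genes had at least 1 count in Synpo+/+ (41342 to 43289) than in most Synpo-/- libraries (35037 to 41843). Synpo-/- replicate 4 stood with the Synpo+/+ libraries on the leading principal component of log CPM, which held 45.4% of the variance (56.1, against 26.8 to 69.4 in Synpo+/+ and a median of -35.0 in Synpo-/-), and results that rest on it are given without it as well. Xist counts exceeded Y-linked counts in all 4 Synpo+/+ libraries and in Synpo-/- replicates 1 to 4, whereas Y-linked counts exceeded Xist in Synpo-/- replicates 5 to 7. With a term for Xist-high libraries, the genotype estimate therefore rests on Synpo+/+ and Synpo-/- replicates 1 to 4. The same holds with the replicate number as a block. Neither setting can adjust replicates 5 to 7 for sex, and with the Xist-high libraries alone they are not separate checks.

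Of 24143 genes tested, 23364 of them autosomal, 4 differed between the genotypes in control DG at an adjusted p under 0.05 (quasi-likelihood F-test of edgeR, p-values adjusted by Benjamini and Hochberg over all genes), 0.0166% of the genes tested. All 4 were autosomal, and 2 of them lay within 5 Mb of Synpo on chromosome 18. Synpo itself, the antisense RNA gene 1500015A07Rik and the long intergenic RNA gene Gm42047 were higher in the libraries labelled Synpo-/-, and Eps8l1, which encodes an actin regulator of the EPS8 family, was lower in them. The count rested on the method and on 1 library: it was 606 without Synpo-/- replicate 4, 259 with DESeq2 and 1100 with limma voom and sample quality weights, and the 4 genes were called in each of these. Among the other genes described here, Rnf168, Il13ra1, Gm4951, Afap1l1, C1qa, C3, Ifitm3, Bst2, Rplp0, Psmb6, Lamp5 and Vmn2r3 were also called without Synpo-/- replicate 4. Below, called means by edgeR over all libraries of a contrast unless another setting is named.

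Synpo (ENSMUSG00000043079.17, GRCm38 chr18:60593973-60660142, minus strand) was the check of the labels. In normalized counts (counts scaled to a common library size), Synpo was at 411.7, 498.6, 544.7 and 530.6 in the 4 Synpo+/+ libraries. It ranged from 910.2 to 1425.6 with a median of 1109.3 in the 7 libraries labelled Synpo-/-. Every library labelled Synpo-/- was thus above every Synpo+/+ library, with means of 1116.5 ± 171.7 (SD, n = 7) and 496.4 ± 59.7 (SD, n = 4). The difference was 1.17 on the log2 scale (SE 0.126, edgeR adjusted p = 0.000517), and it was called under every alternative tried, at 1.00 to 1.24. This direction goes against the label of a synaptopodin-deficient line, so the genotype names stand for the labels in every direction given here. The counts are summed over all annotated exons of the gene, so they do not show which exons were transcribed or whether protein was made.

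The Synpo difference was of unequal size across the other libraries. It was 0.58 in control CA3 (SE 0.145, edgeR adjusted p = 0.113), 0.35 in lesioned DG (SE 0.136, adjusted p = 1.00) and 0.25 in lesioned CA3 (SE 0.109, adjusted p = 0.808), none of which was called. Mean Synpo levels, scaled across all 39 regional libraries, were 53.3 CPM in control DG labelled Synpo-/-, 38.0 CPM in lesioned DG with that label, and 40.2 and 40.0 CPM in control and lesioned CA3 with it. The Synpo+/+ means were 21.98 CPM in control DG, 29.8 CPM in lesioned DG, 25.0 CPM in control CA3 and 35.1 CPM in lesioned CA3. Synpo-/- control DG thus held the highest of the 8 group means and Synpo+/+ control DG the lowest, but neither the difference between control and lesioned DG in the genotype effect (0.87, SE 0.196, adjusted p = 0.478) nor that between DG and CA3 (0.56, SE 0.211, adjusted p = 1.00) passed the test over all genes.

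1500015A07Rik (ENSMUSG00000098702.1, chr18:61726390-61735917, plus strand) lies 1.10 Mb from Synpo by midpoints and gave the smallest p of all genes. It was at 293.1, 224.4, 347.0 and 289.5 normalized counts in Synpo+/+ and at 598.0 to 730.1 (median 686.8) in the libraries labelled Synpo-/-, with no overlap. The log2 difference was 1.22 (SE 0.119, edgeR adjusted p = 0.000226). It was called in each of the other contrasts as well, at 1.65 in control CA3 (SE 0.175, adjusted p = 0.00351), 1.20 in lesioned DG (SE 0.127, adjusted p = 0.00172) and 1.64 in lesioned CA3 (SE 0.169, adjusted p = 0.00272). The control CA3 call was lost without Synpo+/+ replicate 1 of that contrast (adjusted p = 0.161). Across all 39 regional libraries it lay between 20.2 and 46.5 CPM in the 23 labelled Synpo-/- and between 7.95 and 15.7 CPM in the 16 Synpo+/+ libraries.

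The protein-coding gene Afap1l1, which encodes an actin filament-associated protein (ENSMUSG00000033032.15, chr18:61730261-61786702, minus strand), overlaps 1500015A07Rik on the opposite strand. Afap1l1 was at 95.4, 112.8, 131.4 and 136.3 normalized counts in Synpo+/+ and at 61.6 to 88.9 (median 78.5) in the libraries labelled Synpo-/-. The groups did not overlap, and the direction was opposite to that of 1500015A07Rik, but the difference of -0.64 (SE 0.160, edgeR adjusted p = 0.207) was not called in control DG. It was called in lesioned DG (-1.06, SE 0.164, adjusted p = 0.0481), but in 10 of the 11 fits that left out 1 lesioned library the call was lost, and it remained only without Synpo+/+ replicate 5. The library kit does not mark strand, so reads from the stretch that both genes cover cannot be told apart, and the value of each is uncertain there.

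On the other side of Synpo lies a cluster of interferon-inducible GTPase genes, which act in defence against intracellular pathogens. Its members are similar in sequence, and how the counting divided reads between them is uncertain. Gm4951 (ENSMUSG00000073555.1, 0.397 Mb from Synpo) was at 231.1, 140.4, 105.2 and 275.7 normalized counts in Synpo+/+ and at 17.6 to 120.9 (median 69.9) in the libraries labelled Synpo-/-. Its groups overlapped by the lowest Synpo+/+ library, and the log2 difference of -1.52 (SE 0.347, edgeR adjusted p = 0.207) was not called. In the other contrasts it was -1.08 in control CA3, -1.20 in lesioned DG and -1.54 in lesioned CA3, also not called. In lesioned DG it was called when Synpo+/+ replicate 5 of that contrast was left out.

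Gm4841 (ENSMUSG00000068606.6, 0.356 Mb from Synpo), the next gene of the cluster, had values of the opposite sign. It was at 25.6, 49.9, 4.21 and 25.7 normalized counts in Synpo+/+ and at 22.6 to 179.2 (median 86.3) in the libraries labelled Synpo-/-. These values overlapped, and the difference of 1.90 (SE 0.576, edgeR adjusted p = 0.215) was not called in control DG. In lesioned DG Gm4841 was called, at 3.42 (SE 0.415, adjusted p = 0.00332), and the estimates were 0.63 in control CA3 and 2.77 in lesioned CA3. F830016B08Rik (0.329 Mb) was lower by estimate at -1.44 (SE 0.448, adjusted p = 0.215), and Iigp1 (0.243 Mb), which encodes a vacuole-targeting GTPase, was at -0.43 (SE 0.302, adjusted p = 0.487). The estimates of the 4 genes did not share a direction, and none was called by edgeR over the 11 control DG libraries. Gm4951 was called without Synpo-/- replicate 4 (adjusted p = 0.0437), by limma voom (adjusted p = 0.0340) and without a filter on low counts (adjusted p = 0.00933), and Gm4841 without that filter (adjusted p = 0.0496).

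Within 1 Mb of Synpo, 25 genes were tested. Synpo was the only call of edgeR over all 11 libraries among them, with Gm4951 and Gm4841 called under the alternatives given above, and 6 had an unadjusted p under 0.05, 2 of them higher and 4 lower in the libraries labelled Synpo-/-, against 5.76% of all genes tested for higher and 9.76% for lower. The genes there include Camk2a, the calmodulin-dependent kinase abundant in spines, at 0.41 (SE 0.208, edgeR adjusted p = 0.352), and Cd74, the invariant chain of antigen presentation, at 0.41 (SE 0.206, adjusted p = 0.344). Camk2a ranged from 6337 to 16116 normalized counts in the libraries labelled Synpo-/- and from 6566 to 10541 in Synpo+/+, so the groups overlapped.

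By distance from Synpo, the share of genes at an unadjusted p under 0.05 was 24% of 25 genes within 1 Mb (20.8% without Synpo), 37.5% of 16 genes between 1 and 2 Mb, 20% of 40 genes between 2 and 5 Mb, 10% of 70 genes between 5 and 10 Mb, 14.7% of 116 genes between 10 and 20 Mb and 11.8% of 365 genes beyond. These shares lay above the 15.3% of all autosomal genes in the 3 bins up to 5 Mb and below it farther out, and chromosome 18 as a whole was at 13.8%, rank 13 of 19 autosomes, which ranged from 9.41% to 19.9%. Neighbouring genes are not independent, and no test was made of these shares. Both calls on the chromosome, Synpo and 1500015A07Rik, lay within 2 Mb.

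**Figure D1:**
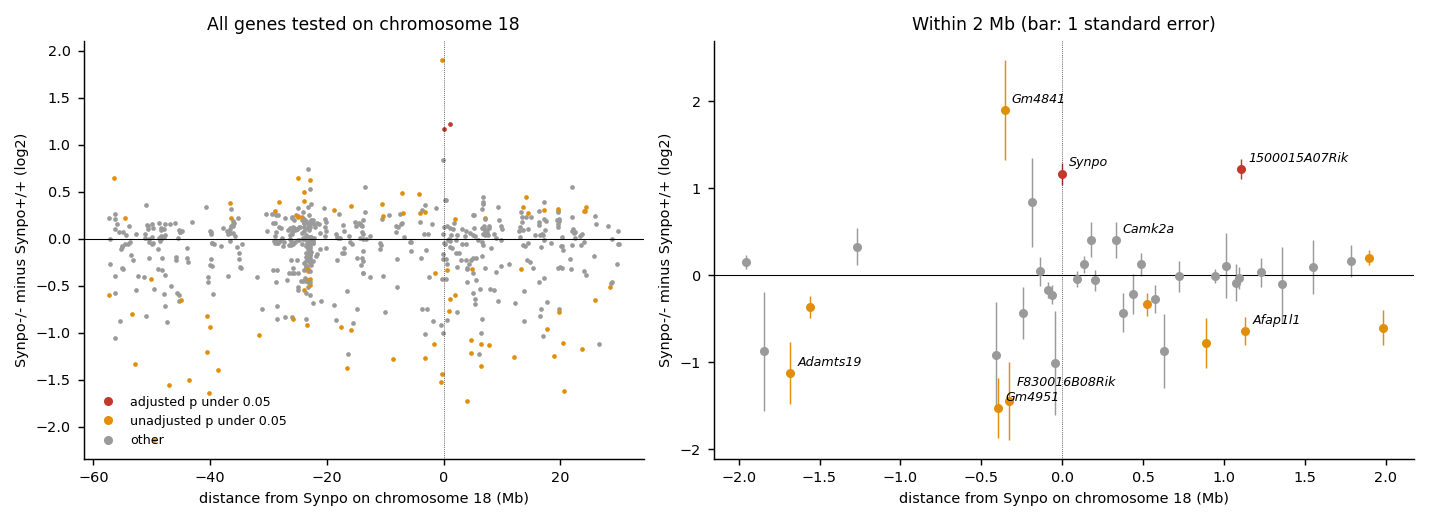
Each point is 1 gene tested on chromosome 18, with its distance from Synpo in Mb on the horizontal axis and the log2 difference between libraries labelled Synpo-/- and Synpo+/+ in control DG on the vertical axis, for the whole chromosome and for the 2 Mb on either side of Synpo, where bars give 1 SE. Synpo (1.17) and 1500015A07Rik (1.22) are the only calls of edgeR over all 11 libraries, with Gm4841 (1.90) higher but with a wide error and Gm4951 (-1.52) on the other side of 0.

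Eps8l1 (ENSMUSG00000006154.13, chr7:4460674-4480487, plus strand) was the call that fell. It was at 105.5, 154.8, 122.0 and 95.8 normalized counts in Synpo+/+ and at 21.4 to 56.0 (median 37.1) in the libraries labelled Synpo-/-. All 7 lay below all 4, with means of 36.8 ± 11.3 (SD, n = 7) and 119.5 ± 25.9 (SD, n = 4) and a log2 difference of -1.69 (SE 0.226, edgeR adjusted p = 0.00675). It was -0.91 in control CA3 (SE 0.310, adjusted p = 0.185), and the sign of the estimate turned after the lesion, to 0.80 in lesioned DG (SE 0.309, adjusted p = 1.00) and 0.78 in lesioned CA3. In mean CPM, Synpo+/+ DG was at 5.29 in control and 1.72 in lesioned cultures, and DG labelled Synpo-/- at 1.74 and 2.95.

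In the test of whether the genotype difference differed between control and lesioned DG, 2730 of 26245 genes had an unadjusted p under 0.05. If p-values were uniform, 1312 would be counted. Eps8l1 was the only call, 1 gene or 0.00381% of those tested, with an interaction of -2.45 (SE 0.387, edgeR adjusted p = 0.0267). When each of the 22 libraries was left out in turn, the Eps8l1 interaction stayed between -2.65 and -2.28, but its adjusted p ranged from 0.00647 to 0.161 and the call was lost without any of 11 of them. The control DG call itself was lost without Synpo+/+ replicate 2 (adjusted p = 0.0719), with a term for Xist-high libraries (adjusted p = 0.0871), when only those libraries were used (adjusted p = 0.0741) and with the replicate number as a block (adjusted p = 0.182). The Xist term, the Xist-high subset and the block take the genotype estimate from the same libraries. No gene of 28235 tested was called for a difference in genotype effect between control DG and control CA3 (0%, by edgeR and by DESeq2). In that interaction 1237 had an unadjusted p under 0.05, where 1412 would be counted if p-values were uniform.

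Gm42047 (ENSMUSG00000110631.1, chr8:121833247-121841178, plus strand), a gene for a long intergenic RNA, was at 344.2, 367.4, 259.8 and 391.3 normalized counts in Synpo+/+ and at 530.4 to 891.2 (median 674.2) in the libraries labelled Synpo-/-. The groups did not overlap, and the log2 difference was 1.03 (SE 0.160, edgeR adjusted p = 0.0348). It was 1.07 in control CA3 (SE 0.187, adjusted p = 0.0626), but -0.39 in lesioned DG and -0.32 in lesioned CA3, where it was not called. This was the least stable of the 4 calls, with an adjusted p under 0.05 in 8 of 22 alternatives.

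**Figure D2:**
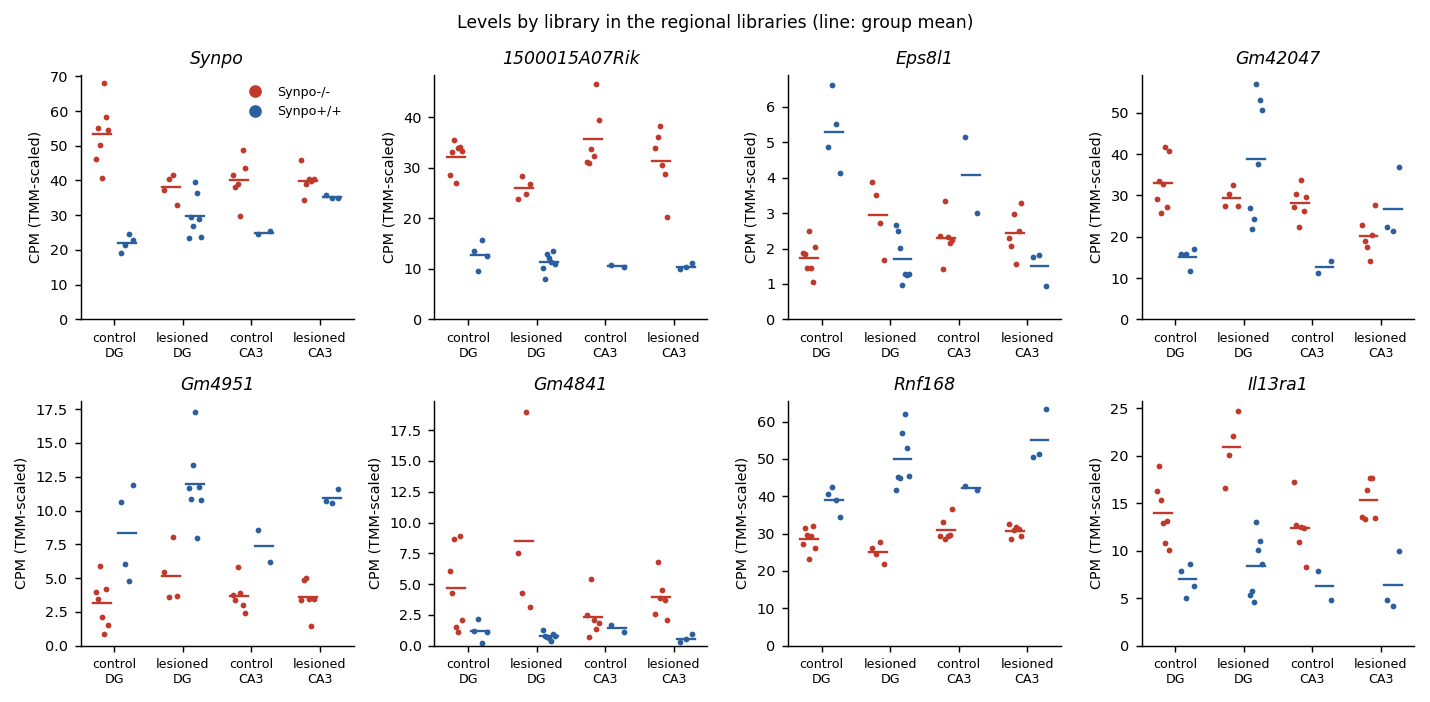
Each point is 1 library, with CPM scaled across the 39 regional libraries on the vertical axis and region and treatment on the horizontal axis, for 8 genes with libraries labelled Synpo-/- in red, Synpo+/+ in blue and a line at each group mean. 1500015A07Rik separates the genotypes in every region and treatment, whereas the gaps of Synpo, Eps8l1 and Gm42047 are widest in control tissue.

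Control CA3 held 1 call (0.00413% of 24203 genes), lesioned DG 4 (0.0166% of 24100) and lesioned CA3 2 (0.00891% of 22447), and 1500015A07Rik was among the calls of each. A search for genes whose genotype groups did not overlap, in the same direction, in all 4 combinations of region and treatment, made after values were seen, found 3 of 24143 genes (0.0124%). In control DG alone, 541 genes did not overlap (2.24%). Besides 1500015A07Rik the 3 were Rnf168 and Il13ra1, neither of them near Synpo.

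Rnf168 encodes a ubiquitin ligase of the DNA damage response (ENSMUSG00000014074.17, chr16:32277459-32301434, plus strand). It was at 879.2, 990.6, 860.2 and 799.3 normalized counts in Synpo+/+ and at 520.8 to 644.8 (median 613.7) in the libraries labelled Synpo-/-. The difference of -0.56 (SE 0.0919, edgeR adjusted p = 0.0507) just missed the threshold in control DG and was called in lesioned DG (-0.99, SE 0.119, adjusted p = 0.00332, lost without Synpo-/- replicate 4 of that contrast) and lesioned CA3 (-0.78, SE 0.0983, adjusted p = 0.0164). In control CA3 it was -0.54 (SE 0.125, adjusted p = 0.104).

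Il13ra1 encodes a chain of the interleukin-13 receptor (ENSMUSG00000017057.9, chrX:36112110-36171259, plus strand). It was at 171.3, 118.1, 190.3 and 146.2 normalized counts in Synpo+/+ and at 221.2 to 380.7 (median 288.9) in the libraries labelled Synpo-/-. The difference was 0.89 in control DG (SE 0.170, edgeR adjusted p = 0.145), 0.87 in control CA3, 1.32 in lesioned DG and 1.33 in lesioned CA3, and none of these was called. The gene is on the X chromosome, and with a term for Xist-high libraries, which leaves the estimate to those libraries, it was called in control DG (1.08, edgeR adjusted p = 0.0212).

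In all, 3746 genes, the 4 calls included, had an unadjusted p under 0.05, where 1207 would be counted if p-values were uniform. Of these, 1390 were higher and 2356 lower in the libraries labelled Synpo-/-. Without Synpo-/- replicate 4 there were 2205 higher and 3132 lower genes, and without Synpo+/+ replicate 4 there were 1406 and 1360. In the main comparison the split followed the level of the gene. Among 7881 genes with a mean of up to 30 normalized counts, 0.444% were higher and 17.9% lower, and among 3925 genes with a mean over 1000, 14.6% were higher and 0.764% lower. With each library's trend on exonic gene length removed, the split was 656 higher and 2861 lower, with its trend on mean level removed it was 1331 and 1467, and with all 4 DG groups in the model it was 2297 and 2101.

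The genes of low level that were lower included the olfactory and vomeronasal receptor genes, which encode the chemoreceptors of nasal neurons. Of 911 tested, 0 were higher and 500 lower at an unadjusted p under 0.05, with a median log2 difference of -1.09 against 9.76% lower and a median of -0.02 for all genes. The lower count was 256 without Synpo+/+ replicate 4, 277 with a term for Xist-high libraries and 305 (median -0.65) with the level trend removed. It was 667 (median -1.40) without Synpo-/- replicate 4, 682 without a filter on low counts and 761 (median -1.54) with limma voom. Vmn2r3 was at 144.2, 137.8, 189.3 and 188.7 normalized counts in Synpo+/+ and at 24.2 to 139.3 (median 57.1) in the libraries labelled Synpo-/-, a difference of -1.22 (SE 0.299, edgeR adjusted p = 0.207). As a share of all counts, receptor genes took 0.141% to 0.244% in Synpo+/+ and 0.0327% to 0.193% in the libraries labelled Synpo-/-. The highest of these 7 was replicate 4, the library that also stood with Synpo+/+ on the leading component. This class was described after its values were seen, and its part in the counts of genes lower in Synpo-/- was not tested.

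**Figure D3:**
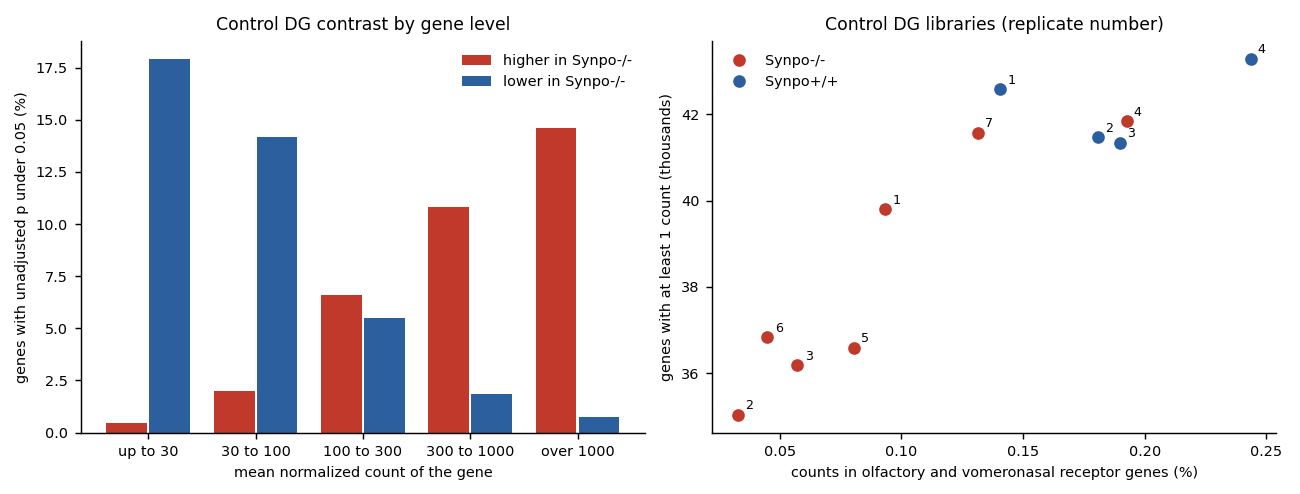
The bars give the percent of genes at an unadjusted p under 0.05, higher or lower in libraries labelled Synpo-/-, by class of mean normalized count, and the points give for each of the 11 control DG libraries the percent of counts in olfactory and vomeronasal receptor genes against the number of genes detected. Lower genes go from 17.9% in the lowest class to 0.764% in the highest, and Synpo-/- replicate 4 (0.193%) lies among the Synpo+/+ libraries (0.141% to 0.244%).

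Genes of microglia, the resident macrophages of the brain, were the marker list with the most even direction. All 18 tested had a higher estimate in the libraries labelled Synpo-/-, 9 of them at an unadjusted p under 0.05 (against 5.76% of all genes), with a median log2 difference of 0.43, and none was called by edgeR over all libraries. Tmem119, a homeostatic microglial membrane protein, was at 107.8, 66.9, 48.4 and 103.8 normalized counts in Synpo+/+ and at 110.2 to 150.9 (median 117.5) with the Synpo-/- label. The groups did not overlap, at a difference of 0.61 (SE 0.199, edgeR adjusted p = 0.219). Aif1, which encodes the calcium-binding protein Iba1, was at 0.55 (SE 0.148, adjusted p = 0.207) and was called by DESeq2 (adjusted p = 0.0347), by limma voom (0.0331) and without a filter (0.0496).

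Summed over the list, microglial markers lay between 1230.5 and 2350.8 CPM in libraries labelled Synpo-/- and between 1062.4 and 1576.3 CPM in Synpo+/+, which overlapped. Synpo-/- replicates 1 to 4 were at 1995.9, 2350.8, 1719.4 and 1811.5 CPM, all above the Synpo+/+ range. Replicates 5 to 7, with more Y-linked than Xist counts, were at 1230.5, 1456.6 and 1237.7 CPM, within that range. Whether this split goes with sex was not tested. In bulk tissue, more cells of a type and more RNA per cell cannot be told apart. The count at an unadjusted p under 0.05 was 8 with the length trend removed and 6 with the length and GC trends removed. It ranged from 8 to 13 when each library was left out in turn. With a term for Xist-high libraries, which leaves the estimate to Synpo+/+ and Synpo-/- replicates 1 to 4, it was 17.

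Complement and chemokine genes showed the same kind of values. Of 19 tested, which include some of the microglial genes, 10 were higher and 0 lower at an unadjusted p under 0.05, beside 5.76% and 9.76% of all genes, with a median of 0.44. The higher count was 6 with the length and GC trends removed and 17 with a term for Xist-high libraries. Their summed level was 807.9 to 1080.1 CPM in Synpo-/- replicates 1 to 4 and 711.4 to 745.9 CPM in replicates 5 to 7. In Synpo+/+ it was 587.8 to 779.5 CPM. C3, the central complement component, had means of 356.9 ± 98.8 (SD, n = 7) and 208.5 ± 55.7 (SD, n = 4) normalized counts, a difference of 0.78 (SE 0.208, edgeR adjusted p = 0.207), and C1qa, a chain of the initiating complex, was at 0.52 (SE 0.154, adjusted p = 0.215). Spp1, the secreted phosphoprotein osteopontin, was at 1313, 1120, 3326 and 1550 normalized counts in Synpo+/+ and at 2863 to 4745 (median 3698) with the Synpo-/- label. A single Synpo+/+ library, replicate 3, reached the Synpo-/- values, and the difference of 1.03 (SE 0.233, edgeR adjusted p = 0.207) was not called. It was 1.49 without that library (edgeR adjusted p = 0.000838). The library is singled out here for its high Spp1 value, so a larger difference without it follows from that choice and is no support. Spp1 was named after its values were seen.

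Interferon-induced and antigen presentation genes numbered 27, of which 8 were higher and 0 lower at that threshold, beside the same shares of all genes, with a median of 0.31. The higher count was 5 with the length and GC trends removed and 13 when only Xist-high libraries were used. Their summed level was 2196 to 2383 CPM in Synpo-/- replicates 1 to 4 and 1576.7 to 2071.1 CPM in replicates 5 to 7. In Synpo+/+ it was 1338.8 to 2041.6 CPM. Ifitm3, a membrane protein that restricts virus entry, was at 2666, 2070, 2254 and 2930 normalized counts in Synpo+/+ and at 3063 to 4294 (median 3758) with the Synpo-/- label. Its groups did not overlap, at a difference of 0.56 (SE 0.117, edgeR adjusted p = 0.192). Bst2, which tethers budding viruses, did not overlap either (0.60, SE 0.147, adjusted p = 0.207), and Isg15, a ubiquitin-like modifier, was at 1.27 (SE 0.338, adjusted p = 0.207) between means of 42.4 and 17.4.

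Short, abundant transcripts of protein synthesis and turnover had higher estimates whose size moved with the treatment of gene length. Of 81 cytosolic ribosomal protein genes, 31 were higher and 2 lower at an unadjusted p under 0.05 (median 0.16). With the length trend removed, 11 were higher (median 0.06). The proteasome list gave 14 of 38 higher (median 0.22) and 2 with the length trend removed, and mitochondrial ribosomal proteins 20 of 77 (median 0.18) and 6, beside 5.76% higher over all genes. With the level trend removed the 3 counts were 7, 2 and 6. Single libraries moved them too: the proteasome count was 3 without Synpo+/+ replicate 2, 8 and 9 without Synpo-/- replicates 2 and 6 and 23 without Synpo-/- replicate 4, and the mitochondrial ribosomal count was 10 without Synpo+/+ replicate 2, 33 without Synpo+/+ replicate 1, and 35 and 32 without Synpo-/- replicates 4 and 7. Rplp0, of the ribosomal stalk, was at 9245, 6849, 9020 and 8906 normalized counts in Synpo+/+ and at 9738 to 14174 with the Synpo-/- label (0.50, SE 0.121, edgeR adjusted p = 0.207). Psmb6, a catalytic proteasome subunit, was at 0.35 (SE 0.0923, adjusted p = 0.207). Complex I subunits of the respiratory chain gave 9 of 36 higher (median 0.17). Heat shock and stress genes gave 6 of 20 (median 0.16), which was 3 without Synpo+/+ replicate 3 or with the length trend removed. That count was 1 with a term for Xist-high libraries and 1 with the replicate number as a block, fits whose estimate rests on the same libraries. Of the 12 genes of the mitochondrial genome, 0 passed (median -0.02). Among protein-coding genes with up to 1 kb of exon, 15.6% were higher, against 2.14% of those over 8 kb.

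Among 27 genes of the spine apparatus and its calcium store, Synpo was the single call of edgeR over all libraries, and the median difference was 0.06. At an unadjusted p under 0.05, 2 members were lower, beside 9.76% of all genes. Atp2a1, a calcium pump of the reticulum better known from muscle, was at 13.96, 15.7, 18.9 and 19.8 normalized counts in Synpo+/+ and at 3.42 to 10.9 with the Synpo-/- label, without overlap but at counts this low (-1.36, SE 0.398, edgeR adjusted p = 0.215), and it was called by limma voom (adjusted p = 0.0355). Ryr1, a calcium release channel, was at -0.58 (SE 0.271, adjusted p = 0.314). Of 35 actin regulators, 4 were higher and 0 lower, beside 5.76% and 9.76% of all genes. Synpo was again the single call of edgeR, and the median was 0.13.

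Glutamate receptor genes were near 0 as groups. Of 19 AMPA receptor genes, auxiliary subunits included, 4 were higher and 1 lower at an unadjusted p under 0.05 (median 0.03). Cacng5, an auxiliary subunit of the AMPA receptor, was at 172.9, 192.9, 172.5 and 146.2 normalized counts in Synpo+/+ and at 180.4 to 236.5 with the Synpo-/- label, which overlapped (0.33, SE 0.124, edgeR adjusted p = 0.253). None of 20 NMDA, kainate and metabotropic receptor genes tested and none of 15 GABA-A receptor genes passed (median -0.06 for each). Postsynaptic scaffold genes gave 1 higher of 28 (median -0.03), vesicle release genes 2 higher and 1 lower of 30 (median 0.02), potassium channel genes 2 higher of 30 (median 0.02) and sodium and calcium channel genes 0 of 23 (median -0.01). These counts are at or below the 15.5% that passed over all genes, except for the AMPA receptor list.

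Immediate early genes, which are transcribed within minutes of neuronal activity, gave 0 higher and 4 lower of 20 at an unadjusted p under 0.05, beside 9.76% lower over all genes, with a median of -0.14. The count was 0 without Synpo+/+ replicate 2, 1 without Synpo+/+ replicate 3 or any of Synpo-/- replicates 1, 3 and 4, and 2 without Synpo+/+ replicate 1 or Synpo-/- replicate 6. Egr4, one of their transcription factors, was at 21.7, 53.8, 22.1 and 20.7 normalized counts in Synpo+/+ and at 10.1 to 22.2 (median 11.4) with the Synpo-/- label, and the difference of -1.05 (SE 0.370, edgeR adjusted p = 0.233) was -0.58 without Synpo+/+ replicate 2. Clustered protocadherin genes, which give neurons their surface identity, gave 1 higher and 5 lower of 52 (median -0.14), a share near that of all genes. Neuropeptide genes gave 1 higher and 2 lower of 22 (median 0.08), and genes of cholesterol synthesis 2 higher of 21 (median 0.08).

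The counts of cell type markers that follow stand beside 5.76% of all genes higher and 9.76% lower, and many lie near those shares. Of 13 dentate granule cell markers 2 were higher and 1 lower at an unadjusted p under 0.05 (median 0.07), and their summed level was 623 to 930 CPM with the Synpo-/- label and 665 to 885 CPM in Synpo+/+. Tdo2, the tryptophan dioxygenase of mature granule cells, was at 613.3, 568.1, 1094 and 959.4 normalized counts in Synpo+/+ and at 443.3 to 689.2 with the Synpo-/- label (-0.48, SE 0.168, edgeR adjusted p = 0.233). CA3 pyramidal markers gave 0 higher and 1 lower of 12 (median -0.13), CA1 markers 1 and 1 of 10, hilar mossy cell markers 0 of 7, and immature granule cell and neurogenesis markers 2 higher of 16 (median 0.06).

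Interneuron markers gave 2 higher and 1 lower of 16 (median 0.10), with opposite values for a pair of genes. Lamp5, which marks neurogliaform cells, was at 892.4, 477.6, 763.5 and 716.3 normalized counts in Synpo+/+ and at 900.3 to 1822 (median 1139) with the Synpo-/- label. The groups met without overlapping (0.74, SE 0.182, edgeR adjusted p = 0.207). Cck, the peptide of a class of basket cells, was at 1707, 1390, 719.3 and 240.1 in Synpo+/+ and at 383.7 to 1006 with the Synpo-/- label, a wide overlap (-0.86, SE 0.361, adjusted p = 0.283).

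Among the other cells a DG dissection can hold, astrocyte markers gave 2 higher of 16 (median 0.05), and oligodendrocyte (14), oligodendrocyte precursor (10) and Cajal-Retzius (8) markers gave none. Endothelial and mural markers, 17 of 18 tested, gave 3 higher and 3 lower with a median of -0.37, while their summed level was 172 to 306 CPM with the Synpo-/- label and 158 to 221 CPM in Synpo+/+, so the median over genes and the sum differed in direction. By estimate 6 of these markers were higher and 11 lower. Rgs5, the member of highest level, had means of 162.4 CPM with the Synpo-/- label and 112.1 CPM in Synpo+/+. Gabra2 and Nnt, genes that carry known variants between substrains of C57BL/6, were at -0.20 (SE 0.117, edgeR adjusted p = 0.415) and -0.15 (SE 0.0999, adjusted p = 0.476).

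**Figure D4:**
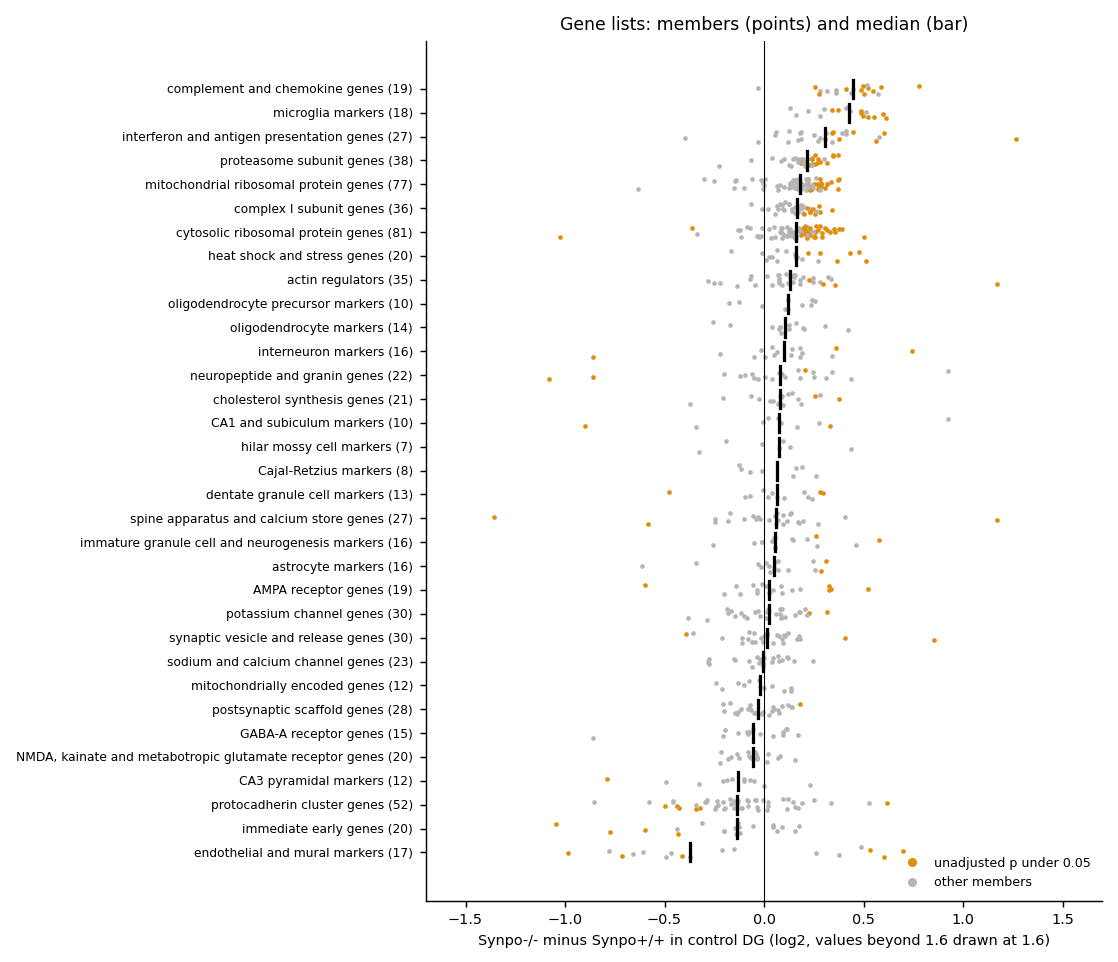
Each row is 1 of 33 gene lists, with the log2 difference between libraries labelled Synpo-/- and Synpo+/+ in control DG on the horizontal axis, a point for each member tested and a mark at the list's median. Medians lie highest for complement and chemokine genes (0.44) and microglia markers (0.43) and lowest for endothelial and mural markers (-0.37), while the lists of glutamate and GABA-A receptors lie within 0.06 of 0.

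The same genes were then followed into the other libraries, for which the labels do not say whether DG and CA3 tissue came from the same cultures. Of the 1390 genes with higher estimates at an unadjusted p under 0.05 in control DG, 1384 were tested in control CA3 and 1215 of them had the same sign there (87.8%), against 71.7% of all genes. In lesioned DG 763 of 1389 (54.9%) had the same sign, against 45.1% of all genes, and in lesioned CA3 546 of 1382 (39.5%), against 38.8%. For the 2356 lower genes the shares were 88.3%, 44.1% and 25.1%. Over all genes, an unadjusted p under 0.05 was reached by 16.4% in control CA3, 3.56% in lesioned DG and 6.16% in lesioned CA3. Genes are not independent of each other, and Synpo+/+ control CA3 held only 2 libraries, without either of which the call count there went from 1 to 0 or 16. Lesioned DG kept Synpo+/+ replicate 5, with Prox1 at the level of CA3. Without that library the calls there went from 4 to 9, and the shares of genes with the same sign were not computed.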

How the data were processed

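RNA was taken from the DG or CA3 area of single cultures. The authors made poly(A)-primed, unstranded libraries with a low-input kit, with 12 PCR cycles for the cDNA and further cycles for the library. They trimmed reads with cutadapt 3.5, aligned them to mm10 (GRCm38) with STAR 2.7.8a and counted reads over GENCODE vM25 exons with featureCounts 2.0.1. Libraries with enough uniquely mapped reads were kept. The authors deposited raw read counts per gene. Reads carry no molecular identifiers, so precision is limited by PCR as well as by the 14147174 to 26931489 counts per library.

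From these counts, the 7 Synpo-/- and 4 Synpo+/+ control DG libraries were compared with edgeR 4.0.16 in R 4.3.3 (filterByExpr, TMM scaling, quasi-likelihood F-test, Benjamini-Hochberg over all genes, threshold 0.05, no covariates). The same fit was made in control CA3, lesioned DG and lesioned CA3, and interactions of genotype with region and with lesion were tested. Positions came from the deposited annotation, and distances are between gene midpoints. Alternatives were DESeq2 1.42.0, limma 3.58.1 (voom with quality weights), RLE factors, no filter, removal of length, GC or level trends, a sex term, a replicate block and each library left out. Scripts were tested on simulated data.

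Genes named are Synpo, genes within 1 Mb of it, calls within 5 Mb, list members with the smallest p, sex and substrain genes, and the smallest p of each interaction, of which those that carry a comparison are given. A further part of the rule took other autosomal calls with a mean over 100 normalized counts, and Gm42047 alone met it. The comparison and the gene lists were chosen with earlier results of these data known. The level classes, the receptor gene class, the level trend, the search for genes separated in all contrasts and the naming of Afap1l1, Rnf168, Il13ra1, Spp1 and Vmn2r3 followed inspection of the values.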

Additional observations from a re-analysis of the deposited data

Results flagged for a closer look

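The 11 control DG libraries were examined by genotype, in groups of 7 and 4, over named genes and the summed levels of the gene lists. Of 142 such groups, 6 held a library set apart from the others by a wide gap. About 7.1 would be counted by chance at 1 in 20. In Synpo+/+, replicate 4 held Aif1 at 1210.4 normalized counts (others 936.8 to 959.1), and replicate 2 held Rplp0 at 6849 (others 8906 to 9245) and Egr4 at 53.795 (others 20.7 to 22.1). In the libraries labelled Synpo-/-, replicate 2 held C1qa at 1847.5 (others 968.4 to 1244.8) and Lamp5 at 1822.4 (others 900.3 to 1283.3), and replicate 3 held F830016B08Rik at 38.785 (others 5.44 to 13.97). The genotype difference of Eps8l1 differed between control and lesioned DG, with an interaction of -2.4534 on the log2 scale (edgeR adjusted p = 0.0267). In lesioned Synpo+/+ DG, replicate 5 held Prox1 at 12.7 CPM, at the level of CA3, and without that library the interaction was -2.39 (adjusted p = 0.0427).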

How the results depend on the processing

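Calls in control DG numbered 4 in edgeR, 259 with DESeq2 (114 higher, 145 lower), 58 without a filter, 1100 with limma voom and quality weights (130 higher, 970 lower) and 2 to 606 with 1 library left out, the highest without Synpo-/- replicate 4 and the lowest without Synpo+/+ replicate 2. The 4 calls were among those of DESeq2, of limma voom, of the unfiltered fit and of the fit with RLE factors. The median log2 difference over the genes tested was -0.19 with DESeq2 and without a filter, each over more genes of low level, and -0.02 in the main comparison. Within 5 Mb of Synpo, 2 calls became 4 without a filter, 8 with limma voom, 1 in the 1 Mb window and 2 to 5 with 1 library left out, and the difference of Synpo itself stayed between 1.10 and 1.24 there. Control CA3 gave 834 calls with DESeq2, 1022 without a filter and 0 to 117 with 1 library left out (highest without Synpo-/- replicate 6), lesioned DG 12, 7 and 2 to 9, the highest without Synpo+/+ replicate 5. Genotype by region gave 1 call without a filter and 0 to 0 with 1 library left out, and genotype by lesion 0 to 1. The causes were not tested.

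Replicate numbers 1 to 4 are shared by the groups, but same-numbered libraries did not all deviate together (correlations 0.146, -0.264, 0.146 and 0.206, and number 2 was closer to number 1), so the numbers were not taken as pairs. With the replicate block there were 3 calls (Gm42047, Synpo at 1.02 and 1500015A07Rik), and the adjusted p of Eps8l1 was 0.182. Over 35 single genes and their 769 values under alternatives, 689 kept their direction and their side of the threshold, 18 lost the threshold, 60 gained it and 0 changed direction with a call.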
